A study of Mus musculus with 18 samples.

Results

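The nuclear genes for the subunits of the oxidative phosphorylation complexes were followed in the mouse forestomach. Members were reference genes chosen by symbol, with pseudogenes left out. The symbols were those of complex I (Nduf, without the assembly factors named Ndufaf), complex III (Uqcr), complex IV (Cox4 to Cox8 families) and complex V (Atp5). Ndufa4 and Ndufa4l2 were counted in complex IV. Atp5s and Atp5sl were counted in complex V by symbol alone, outside its head, stalk and membrane parts. The rule gave 77 genes of 28934 entries with a reference gene, 35 of them in complex I, 8 in complex III, 18 in complex IV and 16 in complex V. No measured value entered the rule. RNA was sequenced in 18 forestomach libraries of male C57BL/6 mice in 4 groups. Wild-type control mice (n = 3) and CCR2-/- control mice (n = 3), which lack the chemokine receptor that draws monocytes into tissue, received 1% carboxymethyl cellulose by gavage. Wild-type NMBA mice (n = 6) and CCR2-/- NMBA mice (n = 6) received N-nitrosomethylbenzylamine (NMBA), a nitrosamine that gives squamous tumors of the rodent esophagus and forestomach, at 0.25 mg/kg. Doses were given 2 times a week over 5 weeks and the mice were examined in week 25. The labels restrict the CCR2 deletion to no cell type, enter esophageal cancer as the cell type of every sample, controls included, and do not give how much tumor an NMBA library held. They number the samples but name no animals, so p-values measure the spread between these samples.

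Oxidative phosphorylation couples the oxidation of NADH and succinate to ATP synthesis in the inner mitochondrial membrane. Complex I takes electrons from NADH, complex III passes them from ubiquinol to cytochrome c, complex IV hands them to oxygen, and complex V uses the proton gradient to make ATP. Complexes I, III, IV and V are built from nuclear and mitochondrially encoded subunits together, while complex II is wholly nuclear. Several complex IV subunits have a common form and a form enriched in muscle, lung, testis or perivascular cells. The acid-secreting parietal cells of the glandular stomach, which adjoins the forestomach, are among the cells richest in mitochondria.

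Values were FPKM as deposited, fragment counts scaled to gene length and library total, so that levels can be compared between genes per length. From the step size of the lowest values, of which 68.6% to 73.6% lay within 0.1 of a step of 0.5 fragments, 1 library held about 18300000 to 25300000 fragments. The Ccr2 transcript lay at 1.3 to 3.43 FPKM in the 9 wild-type libraries and at 0 to 0.0798 FPKM in the 9 CCR2-/- libraries, as labelled. Squamous keratins were abundant throughout, with Krt13 at a mean of 5804 FPKM. Glandular stomach genes were present in every library and varied widely. Atp4b, the beta subunit of the parietal cell proton pump, ranged from 62.5 to 1066 FPKM. Pgc, the gastric pepsinogen C gene, took 0.436% to 9.95% of the FPKM total, highest in CCR2-/- NMBA replicate 4 and wild-type control replicate 3. Summed over the marker lists, glandular stomach genes came to 4375 to 49018 FPKM in wild-type controls, 8372 to 45763 in wild-type NMBA, 25381 to 41703 in CCR2-/- controls and 5493 to 62814 in CCR2-/- NMBA libraries. Smooth muscle genes came to 6787 to 9857 FPKM in wild-type controls, 3014 to 6342 in wild-type NMBA, 5752 to 9989 in CCR2-/- controls and 1836 to 7155 in CCR2-/- NMBA libraries. Striated muscle genes came to 22.1 to 48.5 FPKM in wild-type controls, 17.6 to 38.7 in wild-type NMBA, 19 to 68.3 in CCR2-/- controls and 8.63 to 29.2 in CCR2-/- NMBA libraries. Adipocyte genes came to 1.61 to 37.6 FPKM in wild-type controls, 6.76 to 38.5 in wild-type NMBA, 17.9 to 84.1 in CCR2-/- controls and 2.23 to 36.3 in CCR2-/- NMBA libraries. None of the glandular stomach, smooth muscle or adipocyte markers was at 0 in any library. In such whole tissue, fewer cells of a type and less RNA per cell cannot be told apart.

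The members were among the well-expressed genes of the tissue. Their median level, as mean FPKM over the 18 libraries, was 55.9 for the 77 genes, against 4.03 for the 14765 genes that passed the filter of 0.5 FPKM in at least 3 libraries. Of the 77 members, 76 passed the filter, and only Cox6a2, the heart and skeletal muscle form of subunit VIa, did not. Levels were lower in complex I (median 42.6 FPKM) than in complex III (93.5), complex IV (85.1) or complex V (79.1).

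**Figure D1:**
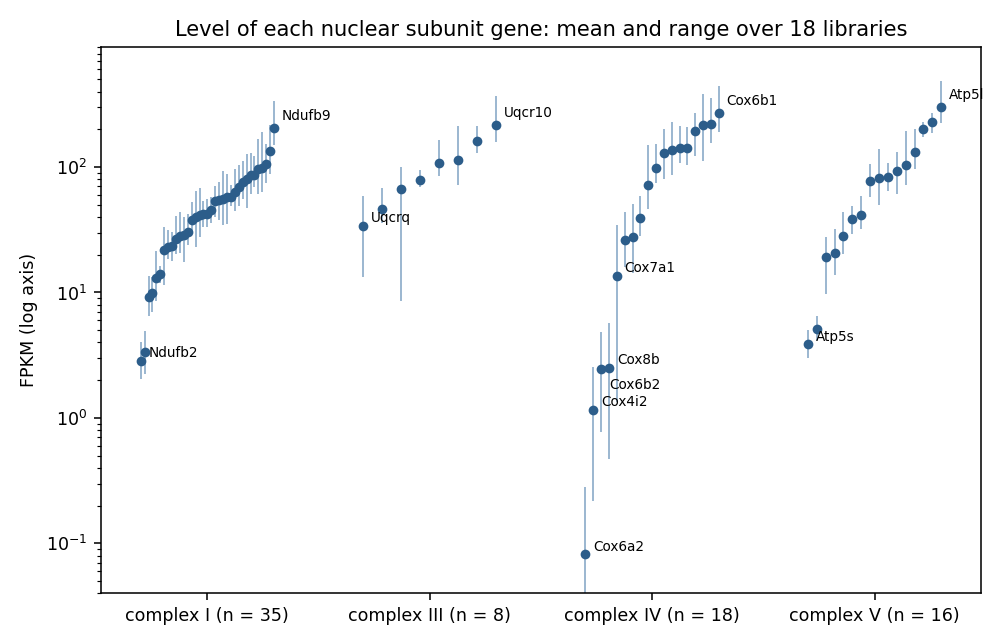
Each point is 1 of the 77 members, placed by complex and ordered by level; the vertical axis is FPKM on a log scale, points are means over the 18 libraries and lines run from the lowest to the highest library (cut at the axis for Cox6a2, whose lowest value is 0). Of these, 67 lie above 9.87 FPKM, the mean of Ndufb8, while the tissue isoforms Cox6a2, Cox4i2, Cox6b2 and Cox8b lie at or under 2.52 FPKM.

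In complex I the highest members were Ndufb9 (mean 206 FPKM) and Ndufs6 (135 FPKM), both accessory subunits. The core subunits of the matrix arm carry the flavin and iron-sulfur clusters, and their levels ran from 14.1 FPKM for Ndufs1, the largest of them, through 30.4 for Ndufs3, 42.5 for Ndufv1 and 45.1 for Ndufv2 to 63.3 for Ndufs8. Ndufs7 was not analysed here. The 6 core and 29 accessory genes had near-equal median levels, 43.8 and 42.6 FPKM. In complex III the highest were Uqcr10 (218 FPKM) and Uqcrb (161 FPKM), small subunits without a redox center. In complex IV they were Cox6b1 (272 FPKM), which faces the intermembrane space, and Cox4i1 (221 FPKM), the common form of subunit IV. In complex V they were Atp5l (304 FPKM), subunit g of the membrane part, and Atp5a1 (227 FPKM), the alpha subunit of the catalytic head. The 3 genes that encode the same mature c-ring protein contributed unequally, Atp5g3 47.1% ± 4.76, Atp5g2 42.3% ± 4.11 and Atp5g1 10.5% ± 1.68 of their summed FPKM (SD over 18 libraries).

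The abundant members were followed in every library. Ndufb9 stood at 150.5, 285 and 197 FPKM in wild-type controls, at 249.7, 203 and 204 FPKM in CCR2-/- controls, at 177 to 336 FPKM with a median of 199.7 in wild-type NMBA and at 152 to 222 FPKM with a median of 166 in CCR2-/- NMBA libraries. Ndufs6 stood at 100.4, 218 and 119 FPKM, 181, 132 and 128 FPKM, 108 to 216 FPKM with a median of 146 and 88.6 to 135 FPKM with a median of 112 in the same order of groups. In both, wild-type control replicate 1 was the lowest control and replicate 2 the highest, and the groups overlapped. Uqcrb stood at 129, 182 and 155 FPKM in wild-type controls, 192, 196 and 160.1 FPKM in CCR2-/- controls, 139.5 to 213 FPKM with a median of 166 in wild-type NMBA and 128 to 173 FPKM with a median of 143 in CCR2-/- NMBA libraries. Cox4i1 stood at 163, 305 and 202 FPKM, 311, 232 and 219 FPKM, 174 to 354 FPKM with a median of 208 and 155 to 219 FPKM with a median of 185 in that order, and Cox6b1 at 192, 357 and 236 FPKM, 322, 285 and 290.0 FPKM, 229 to 444 FPKM with a median of 277 and 191 to 311 FPKM with a median of 232. Atp5l stood at 223, 382 and 232 FPKM, 405, 294 and 284 FPKM, 233 to 486 FPKM with a median of 327 and 239.7 to 308 FPKM with a median of 261. For all 6 genes the ranges of the wild-type groups held the range of the CCR2-/- NMBA libraries at least in part, and none passed limma's test (adjusted p for NMBA in CCR2-/- mice from 0.39 to 0.599).

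Most members varied together from library to library. The correlation of a member with the median of the other members, taken over the 18 libraries as log2(FPKM + 1), had a median of 0.82. It was above 0.7 for 49 of 76. Of all genes kept, members included, 6.51% reached that value against the median of all 76 members. A share for short genes alone is not given. The points are libraries of whole tissue that differ in depth and length slope, and the coefficients are descriptive. Uqcr10, Cox4i1, Atp5e, Ndufs8 and Ndufb9 followed the others most closely, a choice made after the values were seen together with the departures described next. Uqcr10 stood at 157, 309.7 and 200.4 FPKM in the wild-type controls, at 165 to 365.8 FPKM with a median of 221 in the wild-type NMBA libraries, at 276, 217 and 204 FPKM in the CCR2-/- controls and at 159 to 245 FPKM with a median of 171 in the CCR2-/- NMBA libraries. Its highest values were in wild-type NMBA replicate 6 and wild-type control replicate 2, its lowest in wild-type control replicate 1, and all 4 groups overlapped.

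The common variation ran within groups as well as between them. The median member stood 0.52 (log2) above its own mean in wild-type NMBA replicate 6 and 0.41 above it in wild-type control replicate 2, and its deviation was -0.30 in wild-type control replicate 1, as it was in CCR2-/- NMBA replicate 1. The wild-type controls alone spanned most of the range. The 6 CCR2-/- NMBA libraries were close to each other, from -0.30 to 0.06. As a share of all reference FPKM the members took 1.56% ± 0.282 in wild-type controls (SD, n = 3), 1.58% ± 0.203 in wild-type NMBA libraries (n = 6), 1.55% ± 0.122 in CCR2-/- controls (n = 3) and 1.4% ± 0.078 in CCR2-/- NMBA libraries (n = 6).

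**Figure D2:**
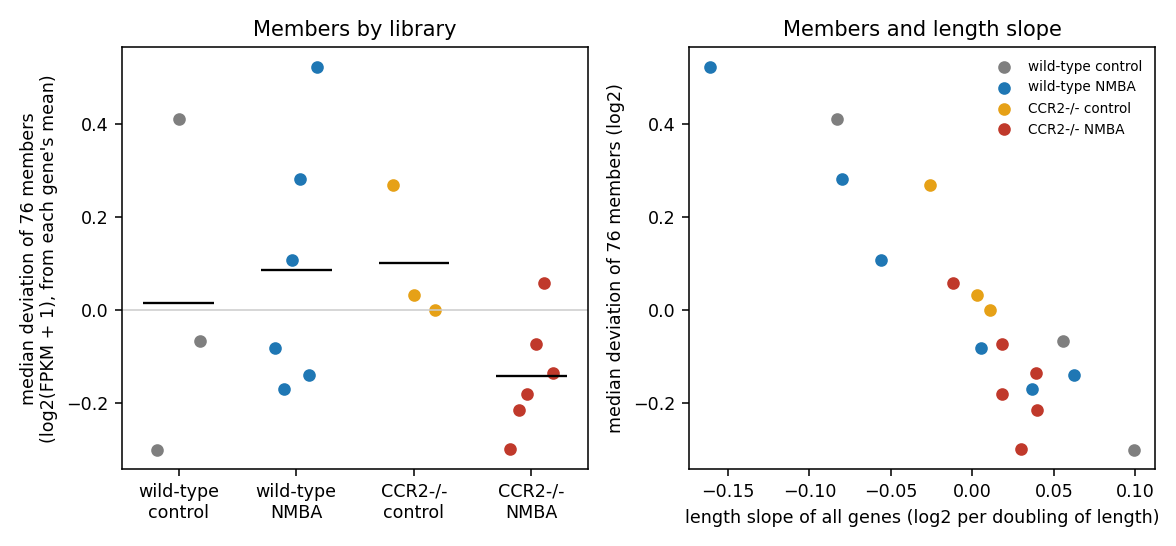
Left, the median deviation of the 76 members from their own means in each library (vertical axis, log2 of FPKM + 1) by group, with the group mean as a line; right, the same deviation against the slope of all genes on transcript length (horizontal axis, log2 per doubling of length). The wild-type groups spread from -0.30 to 0.52, and libraries with a lower length slope have higher members.

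The members are short transcripts, with a median of 824 bases against 2629 for all genes kept, and the libraries differed in how short and long genes compared. The slope of log2 deviation on log2 transcript length over all genes ranged from -0.161 in wild-type NMBA replicate 6 to 0.099 in wild-type control replicate 1. Across the 18 libraries the median member deviation followed this slope with r = -0.92, a description, since the members are part of the genes that set it. Cytosolic ribosomal protein genes, also short (median 914 bases), followed the members with r = 0.82, and mitochondrial ribosomal protein genes (median 1368.5 bases) with r = 0.90. Lists of longer genes also had positive values, r = 0.76 for complex II (median 2065.5 bases) and 0.54 for citrate cycle enzymes (median 2519.5 bases). The mitochondrially encoded subunits did not follow the members, with r = -0.34. The part of length in these relations was not tested. Among the members, the 46 under 1000 bases varied more (median SD 0.33 log2) than the 30 longer ones (0.22). For each comparison the member median after subtraction of this trend is given beside it.

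A few members departed from this course. Some catalytic or core genes with long transcripts varied little: Atp5a1 (SD 0.10 log2 over 18 libraries), Ndufs1 (0.11) and Atp5b (0.12), the beta subunit of the catalytic head. Atp5a1 read 214, 218 and 221 FPKM in wild-type controls, 220.4 to 271 FPKM with a median of 229 in wild-type NMBA libraries, 239, 231 and 219 FPKM in CCR2-/- controls and 188 to 238 FPKM with a median of 230.2 in CCR2-/- NMBA libraries. The 4 groups overlapped, and the highest and the lowest values both came from NMBA libraries.

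A second set moved together apart from the rest. Cox6a1, the common form of subunit VIa, and Cox8a, the common form of subunit VIII, had r = 0.90 with each other over the 18 libraries, while Cox6a1 and Cox6b1 had r = 0.07. Uqcrq, a small complex III subunit that contacts cytochrome b, and Ndufa6, an accessory subunit of the matrix arm, went with Cox6a1 at r = 0.74 and 0.79. Cox6a1 read 336, 253 and 216 FPKM in wild-type controls, 158 to 268 FPKM with a median of 185 in wild-type NMBA libraries, 202, 169.9 and 179 FPKM in CCR2-/- controls and 112 to 385 FPKM with a median of 185 in CCR2-/- NMBA libraries. Its highest value was in CCR2-/- NMBA replicate 3, followed by replicate 1 of the wild-type controls and CCR2-/- NMBA replicate 2, all libraries where the median member was below its mean. Uqcrq ran from 13.3 FPKM in CCR2-/- NMBA replicate 5 to 58.8 FPKM in wild-type NMBA replicate 4. Uqcrfs1, the Rieske iron-sulfur protein, stood apart in 1 library, at 8.49 FPKM in wild-type NMBA replicate 5 against 42.9 to 101 FPKM in the other 17. These genes were chosen after their values were seen, and no test is given.

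Proximal promoters were read for Uqcr10, which followed the rest, and Cox6a1, which did not, to set their sequences side by side. Nuclear respiratory factor 1 and ETS-family factors are known regulators of respiratory genes, so the letters TGCGCA (a core of the NRF1 site), CCGGAAG (ETS), GGGCGG (SP1) and TATAAA, the letters of the TATA box, were searched on both strands in the 250 bases before the start site in RefSeq windows (GRCm38.p6). None of these motifs contains another, and TGCGCA replaced a longer NRF1 motif after the matches of that one had been seen. A window was found for 64 of the 77 members. The NRF1 letters were in 12 of 64 (18.8%) against 7.36% of 27026 genes with a window, the ETS letters in 11 (17.2%) against 7.83%, the SP1 letters in 24 (37.5%) against 35.4%, and TATAAA in 4 (6.25%) against 14.3%. These shares are descriptions and a match is not a binding site. The windows are chr11:4704345-4704594 (minus strand) for Uqcr10 and chr5:115348959-115349208 (minus strand) for Cox6a1, printed 5′ to 3′ with the searched letters in capitals. That of Uqcr10 held none of them, and that of Cox6a1 held 1 match to the NRF1 letters, 1 to the ETS letters and 2 to the SP1 letters. Only these exact letters were marked. Other forms of the NRF1 site stayed in lower case, so the marked TGCGCA need not be the only NRF1-like stretch in the Cox6a1 window.
Uqcr10: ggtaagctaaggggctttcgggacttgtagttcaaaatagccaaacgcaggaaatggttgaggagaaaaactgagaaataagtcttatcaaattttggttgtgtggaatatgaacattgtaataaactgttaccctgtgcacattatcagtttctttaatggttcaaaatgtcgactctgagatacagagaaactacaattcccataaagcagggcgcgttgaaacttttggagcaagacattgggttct
Cox6a1: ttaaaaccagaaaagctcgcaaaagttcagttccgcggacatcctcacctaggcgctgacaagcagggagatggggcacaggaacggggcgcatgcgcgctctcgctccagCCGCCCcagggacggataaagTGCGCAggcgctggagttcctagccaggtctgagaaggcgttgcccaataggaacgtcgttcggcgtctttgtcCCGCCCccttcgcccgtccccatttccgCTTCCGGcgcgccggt

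NMBA against control in CCR2-/- mice gave mostly negative member values. Of the 76 members, 70 had a negative log2 fold change and 6 a positive one, where 49.3% of all genes were positive. The median was -0.28, against 0.00 for all genes tested. The direction was shared by complex I (median -0.29, 35 of 35 negative), complex III (-0.29, 7 of 8), complex IV (-0.34, 14 of 17) and complex V (-0.19, 14 of 16). Within complex IV the 11 common forms had a median of only -0.09 (8 negative, 3 positive). The 5 tissue isoforms had -0.40 (5 negative), and Cox7a2l had -0.31. Some of the tissue isoforms rest on few fragments, such as Cox8b with about 3.48 to 41.2 a library. No member passed limma's test at an adjusted p of 0.05 with Benjamini-Hochberg adjustment over all genes, and only 3 of 14765 genes did (0.0203%). At an unadjusted p under 0.05, 9 members were lower and 0 higher, where 6.18% of all genes were lower and 5.2% higher (11.4% in all). In 8 members (among them Atp5s, Cox7a2, Ndufa12, Ndufa13, Ndufa2, Ndufb8 and Uqcrc2) every NMBA library lay below every control library, as it did in 2.97% of all genes, and in none did it lie above, as in 3.41%. The CCR2-/- controls are only 3 libraries. Markers of some other cell types had larger negative medians in the same comparison. Glandular stomach had -1.06 (7 of 8 negative), the parietal gene Atp4b -1.28 and adipocyte -1.003 (4 of 4 negative). Striated muscle had -0.69 (7 of 7 negative), smooth muscle -0.68 (6 of 6 negative) and pericyte -0.42 (4 of 4 negative). Endothelium had 0.07 (2 of 2 positive) and the leukocyte marker 0.16. Squamous epithelium had a median of 0.15 but was split, with 2 of 4 positive and log2 fold changes from -0.62 to 1.19. Brown adipocyte markers had -0.01. None of these markers was called. Cytosolic ribosomal protein genes, also short, had a median of -0.12 (60 of 82 negative). Without the 2 libraries richest in Pgc, CCR2-/- NMBA replicate 4 and wild-type control replicate 3, the member median was -0.28. Only CCR2-/- NMBA replicate 4 belongs to this comparison, and all CCR2-/- controls stayed in. The value therefore does not show the part of glandular tissue. The part of these cell types in the member values was not tested.

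The smallest p-values in CCR2-/- mice belonged to Ndufa13, Ndufv3 and Cox7a2, none past the threshold. Ndufa13 (GRIM-19) is an accessory subunit of complex I that is also known for binding STAT3. It read 47.1, 49.6 and 50.4 FPKM in the CCR2-/- controls and 22.9 to 39.7 FPKM with a median of 26 in the CCR2-/- NMBA libraries, so that the groups did not overlap (log2 fold change -0.78, SE 0.23, limma adjusted p = 0.294). In wild-type mice the same gene read 29.6, 57.9 and 47.8 FPKM in controls and 35.5 to 64.1 FPKM with a median of 37.6 under NMBA. Ndufv3, the small subunit beside the NADH-binding module, read 33.3, 24.5 and 25.1 FPKM in CCR2-/- controls and 11.5 to 28.3 FPKM with a median of 14.4 under NMBA. Replicates 1 to 3 were at 11.5, 12.7 and 11.9 FPKM, while replicate 4 lay above 2 of the 3 controls (log2 fold change -0.75, SE 0.24, limma adjusted p = 0.309). Cox7a2, the common form of subunit VIIa, read 189, 157 and 156 FPKM in CCR2-/- controls and 87.2 to 133 FPKM with a median of 100.4 under NMBA, with no overlap (log2 fold change -0.69, SE 0.23, limma adjusted p = 0.328).

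Ndufa2, a small accessory subunit of the matrix arm on chromosome 18, was also lower without overlap, at 115, 96 and 105 FPKM in CCR2-/- controls and 63.7 to 85.2 FPKM with a median of 74.5 under NMBA (log2 fold change -0.51, SE 0.25, limma adjusted p = 0.459). Its wild-type controls read 76.7, 189 and 98.5 FPKM, and replicate 2 was higher than any other library. The core subunits of the matrix arm had smaller differences. Ndufs8 gave -0.41 (SE 0.20), while Ndufs1 (-0.01), Ndufs3 (-0.05), Ndufv1 (-0.14) and Ndufv2 (-0.10) had differences of about 1 standard error or less. The short members had a median of -0.32 and the longer ones -0.15, where all genes under 1000 bases had -0.06. With the length trend of each library subtracted the member median was -0.22.

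The core subunits of the matrix arm were followed in the same way. Ndufs8, which carries iron-sulfur clusters near the quinone site, read 44.9, 83.4 and 60.2 FPKM in wild-type controls, 79.3, 71.6 and 64.3 FPKM in CCR2-/- controls, 51.3 to 96.3 FPKM with a median of 63 in wild-type NMBA and 46.5 to 65.4 FPKM with a median of 53.1 in CCR2-/- NMBA libraries. Ndufs1, with the most iron-sulfur clusters of them, had means of 13.1 ± 1.24 FPKM (SD, n = 3) in wild-type controls, 13.8 ± 1.01 FPKM (SD, n = 6) in wild-type NMBA, 14.8 ± 0.813 FPKM (SD, n = 3) in CCR2-/- controls and 14.6 ± 0.987 FPKM (SD, n = 6) in CCR2-/- NMBA libraries. Over all 18 libraries Ndufs3 ran from 23.8 to 42.5 FPKM, Ndufv1, which binds NADH and flavin, from 33.4 to 53.3 FPKM, and Ndufv2, its partner, from 35.6 to 58.2 FPKM.

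The NMBA libraries carry different letter codes in their titles for replicates 1 to 3 and 4 to 6, and the values were recomputed within each. The member median in CCR2-/- mice was -0.30 with replicates 1 to 3 alone and -0.19 with replicates 4 to 6 alone. With replicates 1 to 3 alone Ndufa13 and Ndufv3 passed the threshold (log2 fold changes -1.04 and -1.13, limma adjusted p = 0.0284 and 0.0199). The count of all genes passing in that fit is not given here, and both genes were picked by p-value in data that include these libraries. Over all alternatives run the log2 fold change ranged from -1.04 to -0.53 for Ndufa13 and from -1.13 to -0.37 for Ndufv3. The limma adjusted p ranged from 0.0223 to 0.9995 for Ndufa13.

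NMBA against control in wild-type mice gave mostly small positive values. The member median was 0.09 against -0.01 for all genes, with 53 of 76 positive (all genes, 48.2%), and its sign turned to -0.04 with NMBA replicates 1 to 3 alone, while replicates 4 to 6 alone gave 0.19. Leaving out wild-type control replicate 1 and wild-type NMBA replicate 6, the libraries with the most extreme length slopes, gave -0.15, and leaving out each alone gave -0.07 and -0.01. With the length trend subtracted the median was 0.06. In this comparison glandular stomach markers had a median of 0.78 (8 of 8 positive), smooth muscle markers -0.88 (6 of 6 negative), of which 6 were at an unadjusted p under 0.05, and cytosolic ribosomal protein genes 0.22 (75 of 82 positive). Their part was not tested. No member passed limma's test (13 of 14765 genes did, 0.088%), and 1 member, Ndufa4, reached an unadjusted p under 0.05, where 13.1% of all genes did (5.45% higher and 7.69% lower). Ndufa4, now counted as a complex IV subunit, read 139, 218 and 124 FPKM in controls and 154 to 269 FPKM with a median of 225 under NMBA, and the groups overlapped (log2 fold change 0.47, SE 0.20, limma adjusted p = 0.325). The next smallest p-values were those of Cox6b2, the testis form of subunit VIb (log2 fold change -0.44, SE 0.24, limma adjusted p = 0.456), and Cox8a (log2 fold change -0.39, SE 0.23, limma adjusted p = 0.507), both negative. Cox6b2, at 2.81, 4.81 and 2.87 FPKM in controls and 1.4 to 2.69 FPKM with a median of 2.43 under NMBA, was the only member whose wild-type groups did not overlap, as in 3.76% of all genes in that direction and 2.7% in the other.

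**Figure D3:**
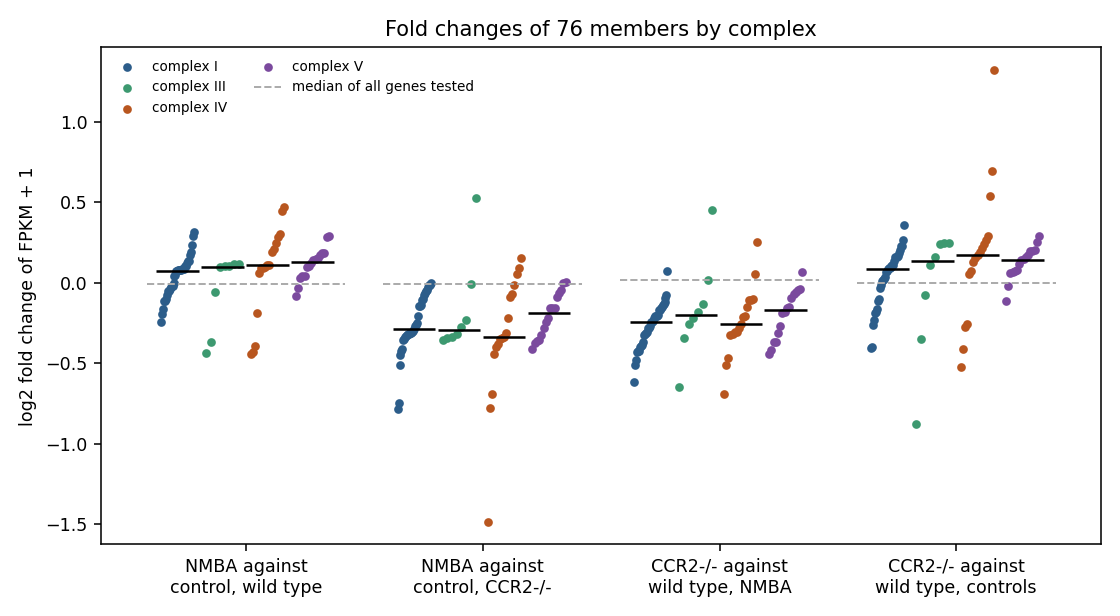
Log2 fold changes of FPKM + 1 (vertical axis) of the 76 members in 4 comparisons, 1 point a gene, colored by complex, with the complex median as a black line and the median of all genes tested as a dashed line. Nearly all points lie below the dashed line for NMBA in CCR2-/- mice and for CCR2-/- against wild type under NMBA (medians -0.28 and -0.23), and no point passed the adjusted threshold.

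CCR2-/- against wild type under NMBA had the same direction, and it shares the CCR2-/- NMBA libraries with the comparison above. The member median was -0.23 against 0.02 for all genes, with 70 of 76 negative, where 54.1% of all genes were positive. Cytosolic ribosomal protein genes, the most similar list of short genes, had a median of -0.27 (74 of 82 negative), with 18 at an unadjusted p under 0.05, and striated muscle markers -0.49 (6 of 7 negative). No member passed limma's test (7 of 14765 genes did, 0.0474%). At an unadjusted p under 0.05, 13 members were lower and 0 were higher, where 3.9% of all genes were lower and 2.4% higher (6.3% in all). All genes under 1000 bases had a median of -0.11, the short members -0.29, and the members after subtraction of the length trend -0.15. The median was -0.20 within replicates 1 to 3 and -0.30 within replicates 4 to 6.

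Uqcr11, a small membrane subunit of complex III, was the only member whose groups did not overlap in that comparison, as in 0.203% of all genes (0.122% in the other direction), at 108 to 176 FPKM with a median of 116 in wild-type and 72 to 97.6 FPKM with a median of 81.1 in CCR2-/- NMBA libraries (log2 fold change -0.65, SE 0.19, limma adjusted p = 0.486). Its control values were 85.3, 211 and 136 FPKM in wild-type and 88.5, 103 and 130.1 FPKM in CCR2-/- mice, and those groups overlapped. Ndufb6, an accessory subunit of the membrane arm, read 56.8 to 104 FPKM with a median of 75.4 in wild-type and 48.7 to 65.5 FPKM with a median of 54.1 in CCR2-/- NMBA libraries (log2 fold change -0.48, SE 0.14, limma adjusted p = 0.486). Ndufa13 gave -0.61 (SE 0.19, limma adjusted p = 0.525).

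**Figure D4:**
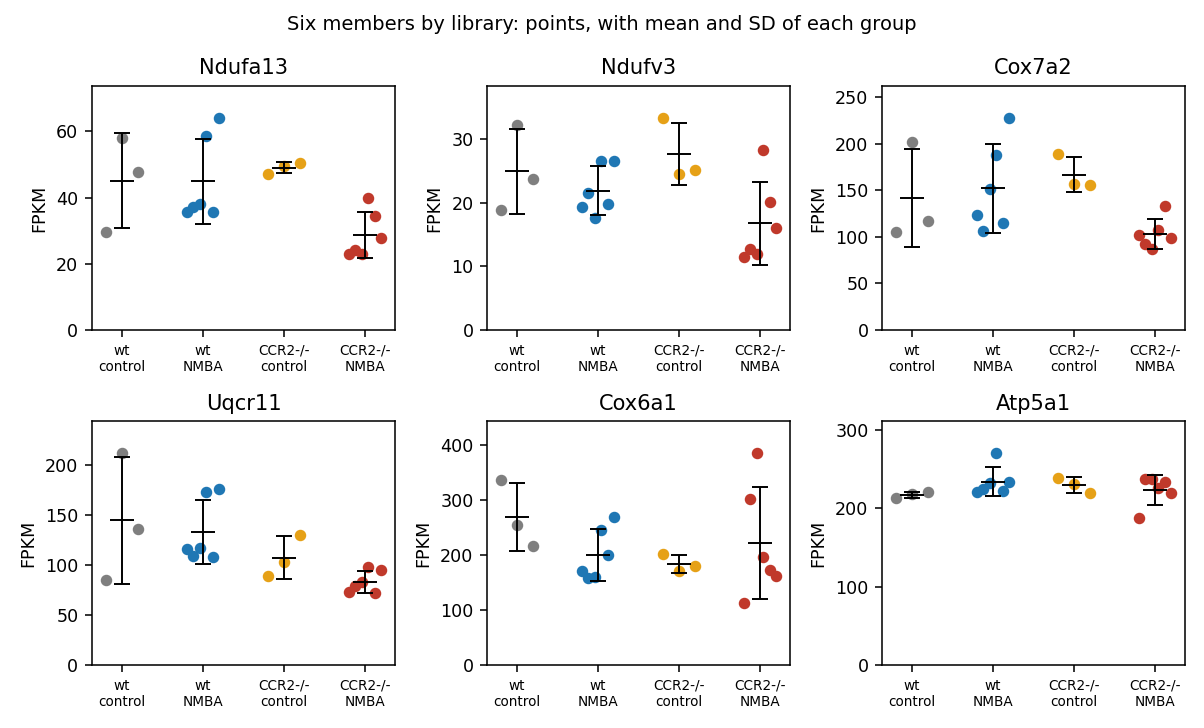
FPKM (vertical axis, from 0) of 6 members in each of the 18 libraries by group (wt, wild type), with the group mean and SD as a black bar. Ndufa13 and Cox7a2 in CCR2-/- NMBA libraries lie below the CCR2-/- controls, Cox6a1 has its highest values in 2 CCR2-/- NMBA libraries and 1 wild-type control, and Atp5a1 stays between 188 and 271 FPKM.

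CCR2-/- against wild type in controls gave mostly positive values, with wild-type controls that ranged widely. The median was 0.11 against 0.00 for all genes, 56 of 76 were positive (all genes, 49.6%), and no member passed limma's test (1 of 14765 genes did, 0.00677%). The median was -0.02 without wild-type control replicate 1, 0.03 without CCR2-/- control replicate 1, 0.29 without wild-type control replicate 2, and 0.10 with the length trend subtracted. Glandular stomach markers had a median of 1.53 (7 of 8 positive), Atp4b 1.63 and adipocyte markers 0.97 (4 of 4 positive), and their part was not tested. Uqcrc2, a core protein of complex III, read 69.5, 79.2 and 75.2 FPKM in wild-type and 85.4, 94.5 and 86.4 FPKM in CCR2-/- controls (log2 fold change 0.25, SE 0.11, limma adjusted p = 0.931). It was higher without overlap, as in 4.47% of all genes, and 2 members lay at an unadjusted p under 0.05, where 5.11% of all genes lay (2.81% higher and 2.3% lower). The same CCR2-/- control libraries enter the NMBA comparison in which Uqcrc2 also did not overlap. Cox6a1, Ndufa6 and Uqcrq were lower without overlap, as in 4.74% of all genes. Ndufa4l2, a hypoxia-inducible relative of Ndufa4, was also among the smallest p-values, at 20.4, 35.8 and 14.2 FPKM in wild-type and 36.1, 33.7 and 38.4 FPKM in CCR2-/- controls, with overlap (log2 fold change 0.69, SE 0.33, limma adjusted p = 0.967).

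The difference of the NMBA response between genotypes was tested as an interaction term. The member median was -0.33 against 0.02 for all genes, with 67 of 76 negative (all genes, 52.8% positive), so that the response was lower in CCR2-/- than in wild-type mice for most members. In the same term glandular stomach markers had a median of -1.73 (7 of 8 negative), Atp4b -1.90, adipocyte markers -1.44 (4 of 4 negative), striated muscle markers -1.28 (5 of 7 negative) and cytosolic ribosomal protein genes -0.34 (73 of 82 negative). Their part was not tested. No member and no gene passed limma's test (0.0%). At an unadjusted p under 0.05 there were 6 lower members and 0 higher, against 2.58% of all genes lower and 1.98% higher (4.56% in all). Among the smallest p-values were those of Uqcrc2 (log2 fold change -0.38, SE 0.13) and Cox7a2 (log2 fold change -0.80, SE 0.33), with a limma adjusted p of 0.893 for each. Uqcrc2 read 69.5 to 88.3 FPKM with a median of 80.2 under NMBA in wild-type mice and 69.8 to 81.4 FPKM with a median of 71.6 in CCR2-/- mice. Over the leave-one-out fits the member median ranged from -0.54 to -0.17, and after subtraction of the length trend it was -0.24.

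NMBA replicates 4 to 6 were compared with replicates 1 to 3, averaged over genotypes, because their titles carry different letter codes. The member median was 0.20 against -0.03 for all genes and 0.16 with the length trend subtracted, 68 of 76 members were positive (all genes, 44.4%), and no member passed limma's test (26 of 14765 genes did, 0.176%). At an unadjusted p under 0.05, 11 members were higher and 0 lower, where 6.81% of all genes were higher and 10.3% lower (17.1% in all). No member had groups that did not overlap, against 0.42% of all genes higher and 1.07% lower. The smallest p-values were those of Ndufv3 (log2 fold change 0.53, SE 0.15, limma adjusted p = 0.132), Cox7a1, the heart and muscle form of subunit VIIa (log2 fold change 1.65, SE 0.52, limma adjusted p = 0.164), and Ndufa13 (log2 fold change 0.48, SE 0.16, limma adjusted p = 0.169). Glandular stomach genes had a median of 1.35 over the 8 of the list in the same comparison, and Krt4, a squamous keratin, passed the test (log2 fold change 0.79, SE 0.12, limma adjusted p = 0.0206). The part of these cells in the member differences was not tested. The count of members passing was 30 with library weights, which called 3017 genes in all, and 2 (Ndufv3 and Cox7a1) without CCR2-/- NMBA replicate 6. The count over all genes in that last fit is not given here, so the 2 cannot be read as a result about the members.

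Cox6a2, Cox4i2, Cox6b2 and Cox8b were minor forms in this tissue, while Cox7a1 and Ndufa4l2 took larger shares. Cox6a2 was listed at 0 FPKM in 9 of 18 libraries and reached 0.28 FPKM, which corresponds to about 3.5 fragments at most, beside 216 FPKM of Cox6a1. Cox4i2, the lung and oxygen-sensing form of subunit IV, took a median of 0.53% of the summed FPKM of the pair with Cox4i1, and Cox6b2 0.832% of that with Cox6b1. Cox8b, the muscle form of subunit VIII, took 1.63% of that with Cox8a, and its counts were small, about 3.48 to 41.2 fragments a library. Ndufa4l2 took 7.31% to 19.3% of that with Ndufa4. Cox8a read 203, 167 and 123 FPKM in wild-type controls, 144, 111 and 111 FPKM in CCR2-/- controls, 103 to 169 FPKM with a median of 116 in wild-type NMBA and 80 to 193 FPKM with a median of 109 in CCR2-/- NMBA libraries. By group the share of Ndufa4l2 was 12.4% ± 1.93 in wild-type controls (SD, n = 3), 10% ± 2.36 in wild-type NMBA (n = 6), 17% ± 0.82 in CCR2-/- controls (n = 3) and 13.4% ± 3.61 in CCR2-/- NMBA libraries (n = 6). No member of these pairs passed limma's test in any comparison.

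Cox7a1 was the most variable member (SD 1.22 log2). It read 1.47, 10.5 and 24.2 FPKM in wild-type controls, 21.6, 22.3 and 20.3 FPKM in CCR2-/- controls, 5.23 to 34.4 FPKM with a median of 8.95 in wild-type NMBA libraries and 1.33 to 32.9 FPKM with a median of 4.79 in CCR2-/- NMBA libraries. The CCR2-/- controls were alike, while each of the other groups spread over most of the range. Its share of the summed FPKM with Cox7a2 went from 1.37% in wild-type control replicate 1 to 23.5% in CCR2-/- NMBA replicate 4. Cox7a1 varied with glandular stomach genes. Over the 18 libraries Cox7a1 and Atp4b had r = 0.92 and rho = 0.94, r = 0.89 without the 2 libraries farthest from the median of Atp4b, and r = 0.93, 0.60 and 0.94 within controls, NMBA replicates 1 to 3 and NMBA replicates 4 to 6. This pair was chosen after the values were seen and has no test. Among all genes kept, those most like Cox7a1 over the 18 libraries were Ghrl (r = 0.97), which encodes the gastric hormone ghrelin, and Pla2g1b (r = 0.96), a secreted phospholipase.

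**Figure D5:**
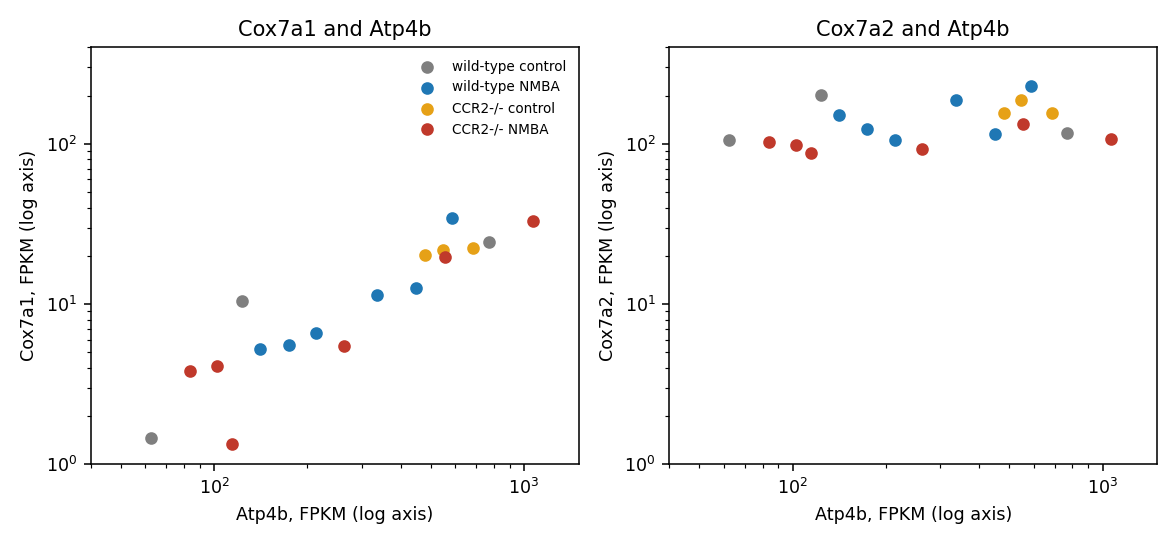
FPKM of Cox7a1 (left) and of its common counterpart Cox7a2 (right) against FPKM of Atp4b, 1 point a library, colored by group, all axes on log scales. Cox7a1 rises with Atp4b in all groups from 1.33 to 34.4 FPKM, while Cox7a2 stays between 87.2 and 228 FPKM.

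The promoters of this pair are shown because the 2 forms of the same subunit behaved differently here, Cox7a2 with the other members (r = 0.94) and Cox7a1 with gastric genes. The windows are chr9:79759854-79760103 (minus strand, GRCm38.p6) for Cox7a2 and chr7:30183921-30184170 (plus strand) for Cox7a1, the 250 bases before the RefSeq start site, printed 5′ to 3′ with matches to the letters listed above in capitals. Cox7a2 held 1 SP1 match and Cox7a1 none, which says only that these letters were not in this window.
Cox7a2: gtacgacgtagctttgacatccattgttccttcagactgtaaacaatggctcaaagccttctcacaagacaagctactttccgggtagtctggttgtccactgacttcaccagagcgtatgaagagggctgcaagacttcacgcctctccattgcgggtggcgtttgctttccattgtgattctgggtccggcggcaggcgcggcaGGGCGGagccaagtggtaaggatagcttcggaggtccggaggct
Cox7a1: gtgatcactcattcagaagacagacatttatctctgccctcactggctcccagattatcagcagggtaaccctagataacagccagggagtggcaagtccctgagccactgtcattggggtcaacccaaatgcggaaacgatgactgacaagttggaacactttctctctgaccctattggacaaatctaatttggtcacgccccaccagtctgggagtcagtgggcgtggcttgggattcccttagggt

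The relation of the tissue forms to their known sites of expression was tested over the 18 libraries in 5 two-sided permutation tests, with Benjamini-Hochberg adjustment over the 5. Against the mean log2(FPKM + 1) of striated muscle genes (Ckm, Acta1, Tnnt3 and others, 7 of 9 listed symbols found), Cox8b had r = 0.53 (permutation p = 0.0196, adjusted 0.0982) and rho = 0.42 (permutation p = 0.0836, adjusted 0.209). Its r was 0.36 without the 2 farthest libraries, 0.51 in the 6 controls, 0.76 in NMBA replicates 1 to 3 and 0.40 in NMBA replicates 4 to 6. Cox7a1 had r = 0.45 (permutation p = 0.0578, adjusted 0.144) and rho = 0.46 (permutation p = 0.0583, adjusted 0.209), and its r was 0.27 without the 2 farthest libraries, 0.26 in the 6 controls, 0.74 in NMBA replicates 1 to 3 and 0.32 in NMBA replicates 4 to 6. Cox6a2, at 0 in 9 libraries, had r = 0.23 (permutation p = 0.353, adjusted 0.353) and rho = 0.09 (permutation p = 0.733, adjusted 0.903), with r = -0.21 without the 2 farthest libraries, 0.97 in the 6 controls, -0.28 in NMBA replicates 1 to 3 and 0.61 in NMBA replicates 4 to 6. Against pericyte genes (Rgs5, Kcnj8, Abcc9 and Higd1b), Cox4i2 had r = 0.29 (permutation p = 0.242, adjusted 0.303) and rho = 0.03 (permutation p = 0.903, adjusted 0.903), with r = 0.06 without the 2 farthest libraries, 0.24 in the 6 controls, 0.70 in NMBA replicates 1 to 3 and -0.32 in NMBA replicates 4 to 6. Ndufa4l2 had r = -0.34 (permutation p = 0.168, adjusted 0.28) and rho = -0.14 (permutation p = 0.569, adjusted 0.903), with r = 0.05 without the 2 farthest libraries, -0.65 in the 6 controls, -0.61 in NMBA replicates 1 to 3 and -0.62 in NMBA replicates 4 to 6. None of the 5 passed an adjusted p of 0.05.

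The other genes of mitochondrial respiration gave no called member either. In the 9 lists of complex II, cytochrome c with its lyase and cytochrome c1, mitochondrially encoded subunits, assembly factors of complexes I, III, IV and V, biogenesis regulators and citrate cycle enzymes, none passed limma's test in any of the 6 comparisons. Complex II (Sdha, Sdhb, Sdhc and Sdhd) had a median log2 fold change of -0.35 for NMBA in CCR2-/- mice and 0.01 in wild-type mice, the citrate cycle enzymes (12 genes) -0.22 and 0.01, and the 12 complex I assembly factors -0.13 and -0.02. Sdha, the flavoprotein of complex II, read 78.4, 77.3 and 70.8 FPKM in CCR2-/- controls and from 51.9 to 75.7 FPKM in CCR2-/- NMBA libraries, with overlap. The mitochondrially encoded entries were each more abundant than any nuclear member, with mt-Co1 at a mean of 7032 and mt-Co2 at 3602 FPKM, and all 8 entries, some of which join neighboring genes, had negative log2 fold changes for NMBA in CCR2-/- mice (median -0.18) with 6 of 8 positive in wild-type mice (median 0.05). The 10 biogenesis regulators, with Esrra (mean 25 FPKM) and Tfb2m (6.95 FPKM) the highest, had medians of 0.00 and -0.09. The highest of the other lists, by mean FPKM, were Sdhd (65.8), the membrane anchor of complex II, Cyc1 (106) and Cycs (35.7), cytochromes c1 and c, and Cs (120.3), citrate synthase. Among assembly factors the highest were Ndufaf2 at 16.1 FPKM and Ecsit at 14 for complex I, Uqcc2 at 63 and Uqcc3 at 26.6 for complex III, Coa3 at 57.8 and Cox14 at 41.5 for complex IV, and Atpif1, the ATPase inhibitor, at 50.7 and Atpaf2 at 10.3 for complex V. The median log2 fold changes for NMBA in CCR2-/- mice were -0.16, -0.01 and -0.16 for the assembly factors of complexes III, IV and V and -0.15 for cytochromes c and c1 with the heme lyase.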

How the data were processed

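Forestomach RNA was prepared for 18 libraries with TruSeq kits. The authors deposited 1 table of FPKM values with 57234 entries, of which 28300 named no reference gene and were left out. The submitters' processing notes name the builds mm10 and GRCm38. The aligner, counter and annotation release are not given in the sources used here. FPKM divides by length and total, so a library-wide length trend or a few very abundant genes shift the other values. Among the members 2 were joined with a neighboring gene in 1 entry (Ndufb8 with Gm20538 and Sec31b, Atp5o with Donson), so their values include it.

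Values were taken as log2(FPKM + 1), which understates changes of low genes. The 14765 genes reaching 0.5 FPKM in at least 3 libraries entered limma 3.58.1 (R 4.3.3) with a mean-variance trend, 1 fit of 4 groups (6 cells for replicates 4 to 6 against 1 to 3), two-sided, with Benjamini-Hochberg adjustment over all genes. Members were read from that fit. Values of some genes that the naming rule covers are not reported here. Transcript lengths were those of principal transcripts in GENCODE M21.

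Members and lists were chosen with earlier results of these data known. Named were Ndufa2, the 2 highest members of each complex, the matrix-arm core subunits, the isoform pairs, and for each comparison the called members or else the 3 smallest p-values. Alternatives covered pseudocount, filter, scaling, length trend, weights, replicate block and left-out libraries. The fits were tested on simulated data in which 200 of 14765 genes were changed. A log2 change of 0.5 was recovered in 19% of them for NMBA in wild-type and 18% for NMBA in CCR2-/- mice. For genotype it was recovered in 44% under NMBA and 7.5% in controls. A log2 change of 1 was recovered in 74% to 84%, so a member that did not pass may still have changed. Noise was drawn separately for each gene and library, without the variation that genes of a library share. Only well-expressed genes were changed, so the rates do not cover low members such as Cox4i2, Cox6b2 and Cox8b. Figures used matplotlib 3.10.9.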

Additional observations from a re-analysis of the deposited data

Results flagged for a closer look

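In the groups of 6 libraries, 62 combinations of a named member (or the member median) and a group were screened for a value far from the other 5, and 2 were found, fewer than the 1 in 20 that chance gives. Both concern Atp5a1, the alpha subunit of the complex V head, whose values varied little. Wild-type NMBA replicate 4 stood at 271 FPKM, where the next highest of its group was 234 FPKM. CCR2-/- NMBA replicate 1 stood at 188 FPKM, where the next lowest of its group was 219 FPKM. Of the 30 named members screened, none had every NMBA library moved one way from its control mean in wild-type mice and every one the opposite way in CCR2-/- mice.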

How the results depend on the processing

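No member was called in wild-type NMBA against control, in either genotype comparison or in the difference of responses under any alternative run. For NMBA in CCR2-/- mice the count was 2 with NMBA replicates 1 to 3 only and 1 with library weights, against 0 as reported. Counts over all genes in those fits are not given here. For replicates 4 to 6 against 1 to 3 the count of members was 30 with library weights and 0 to 2 when 1 library was left out (2 without CCR2-/- NMBA replicate 6). For the left-out libraries, too, counts over all genes are not given here. With the replicate number as a block the count for NMBA in CCR2-/- mice was 2 (Ndufa13 and Ndufv3) among 294 genes called in all. Of 21 same-numbered pairs of libraries, 8 had deviations correlated above 0.1 (range -0.40 to 0.43), while the other pairs ranged from -0.59 to 0.53. These correlations cannot show whether same-numbered samples share a batch, and the labels give only the number. The block could not be fitted for replicates 4 to 6 against 1 to 3.

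The member median kept its sign in all alternatives for NMBA in CCR2-/- mice (-0.35 to -0.19), CCR2-/- against wild type under NMBA (-0.30 to -0.15), the difference of responses (-0.54 to -0.10) and replicates 4 to 6 against 1 to 3 (0.14 to 0.29). For NMBA in wild-type mice it kept its sign in 25 of 31 and was -0.15 without the 2 libraries of extreme length slope, an alternative chosen after seeing the data, and -0.07 to 0.27 when 1 library was left out. In controls it was -0.02 to 0.29 when 1 library was left out. The r of Cox6a2 with striated muscle genes changed sign in NMBA replicates 1 to 3 (-0.28) and without the 2 farthest libraries (-0.21), that of Cox4i2 with pericyte genes in NMBA replicates 4 to 6 (-0.32), and that of Ndufa4l2 without the 2 farthest (0.0466). The causes were not tested. Depth limits Cox6a2, Cox8b and Cox4i2, which rest on few fragments.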
